A study of Mus musculus with 32 samples.

Results

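The calcium/calmodulin-dependent kinase genes examined here numbered 10 of the 23420 genes in the count tables, and were chosen by name: the CaMKII subunit genes *Camk2a*, *Camk2b*, *Camk2d* and *Camk2g*, the CaMK kinase genes *Camkk1* and *Camkk2*, the CaMKI genes *Camk1*, *Camk1d* and *Camk1g*, and *Camk4*. Their messenger RNA was measured by RNA-seq in striatum pooled from both hemispheres of 16 mice. The 8 congenic mice, labelled B6.D2 (C57BL/6J-DBA/2J), came from Line 4a, in which 1 chromosome 11 of the pair carries a stretch of DBA/2J (D2) origin on a C57BL/6J (B6) background. The 8 controls were B6 littermates, and all mice were about 50 days old and naïve, with no drug or training before the tissue was taken. Line 4a is a single congenic line that differs from B6 by the whole introgressed stretch, so a difference between the groups cannot be assigned to 1 gene within it. Neither *Camk2b* nor *Camkk1*, the kinase genes on chromosome 11, lies inside the D2 stretch, and the other 8 genes are on other chromosomes.

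Calmodulin is a small protein that binds calcium when its level in the cell rises, and calcium-loaded calmodulin switches on the kinases of this family. CaMKII is a large ring of subunits that is abundant at synapses, where it phosphorylates glutamate receptors and can keep itself active after calcium has fallen. CaMKI and CaMKIV work in a cascade: a CaMK kinase, CaMKK1 or CaMKK2, must phosphorylate them before they are fully active. CaMKIV is found largely in the nucleus and acts on transcription factors such as CREB, and in the striatum these enzymes lie downstream of glutamate and dopamine signals.

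The RNA of each mouse gave between 19032826 and 33748353 reads on genes in B6 mice and between 24912413 and 32085311 in B6.D2 mice, and values are CPM, read counts relative to the library total after TMM scaling. All 10 kinase genes passed the filter on low counts, the lowest count in a mouse being 536 reads for *Camk1g*, so the spread between mice and not the counting error set the precision. A pair of libraries stood apart from the rest. In B6 mouse 8, 11.3% of reads fell outside exons and 68.3% on genes, and in B6.D2 mouse 1, 10.2% fell outside exons and 27.3% aligned to more than 1 place, against 14.5% to 15.9% outside exons and 19.5% to 21.4% with more than 1 alignment in the others. The fold change of each kinase gene is given with and without these 2 libraries. The 14 markers of striatal projection neurons, such as *Ppp1r1b* and *Drd2*, summed to 7369 to 10755 CPM in B6 and 8029 to 9256 CPM in B6.D2 mice. No other tissue was measured to set this level against.

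In these naïve mice no kinase gene passed the test of a difference between the genotypes. With edgeR's quasi-likelihood test and Benjamini-Hochberg adjustment over all genes, 0 of the 10 genes passed a false discovery rate (FDR) of 5%, and the lowest adjusted p was 0.538, for *Camkk2*. Over the whole transcriptome 1 gene passed, which is 0.00641% of the 15589 genes tested. At an unadjusted p under 0.05, 0 of the 10 were higher in B6.D2 mice, against 4.86% of all genes, and 0 were lower, against 5.14%. Every kinase gene overlapped between the groups, whereas 0.0577% of all genes did not. The estimated log2 fold changes ran from -0.15 for *Camk4* to 0.03 for *Camk2b*. Of the 10 estimates 8 were below 0 with a median of -0.09, beside 45.1% of all genes below 0 and a median of 0.01. Without the libraries that stood apart, 7 were below 0 and the median was -0.02.

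**Figure D1:**
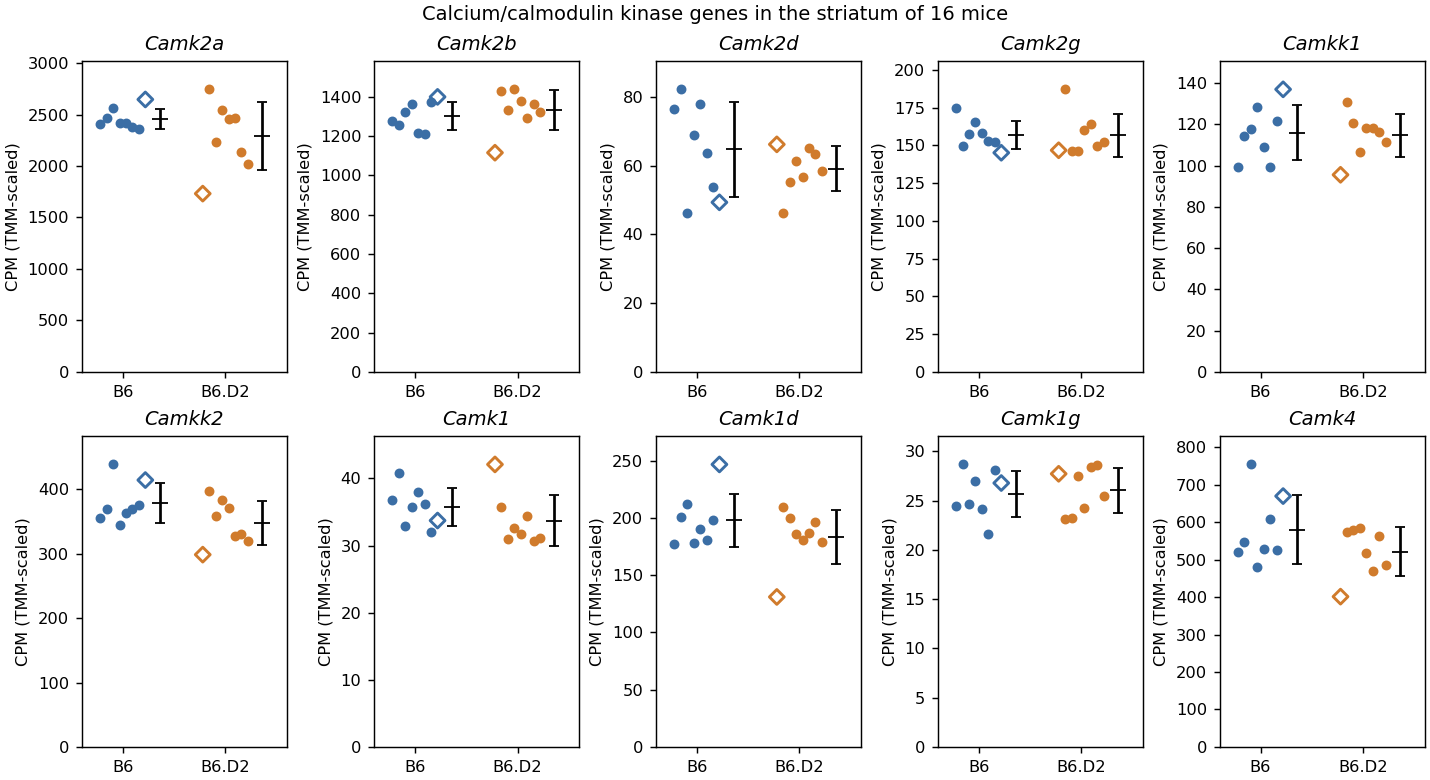
Level of each kinase gene (vertical axis from 0, CPM after TMM scaling) in 8 B6 and 8 B6.D2 mice, 1 point a mouse, with mean ± SD at the right of each group; open diamonds are B6 mouse 8 and B6.D2 mouse 1. The groups overlap in every panel, and B6.D2 mouse 1 is the lowest of the 16 mice for 6 genes and the highest for *Camk1*.

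Upstream sequences are shown for *Camkk2*, *Camk1d*, *Camk2b* and *Camk2d*, which are some of the 7 kinase genes that had a window. Each sequence is the 250 bases before a RefSeq transcription start (GRCm38.p6), written 5′ to 3′ on the gene's strand. Capitals mark the GC box GGGCGG or its reverse complement CCGCCC, a motif that Sp-family factors are known to bind. The *Camk2b* and *Camk2d* windows lie wholly inside the annotated span of their gene and match transcript sequence in the sense direction. They are thus not upstream of every transcript of the gene. The windows of *Camk1* and *Camk1g* and the other *Camk1d* window, not printed, also match transcript sequence.
*Camkk2* (chr5:122779411-122779660, minus strand): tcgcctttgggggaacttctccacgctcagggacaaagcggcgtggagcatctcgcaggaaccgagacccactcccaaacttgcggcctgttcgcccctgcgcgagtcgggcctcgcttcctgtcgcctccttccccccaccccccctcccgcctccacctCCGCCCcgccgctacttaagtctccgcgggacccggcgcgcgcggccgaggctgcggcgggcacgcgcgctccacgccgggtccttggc
*Camk1d* (chr2:5714763-5715012, minus strand): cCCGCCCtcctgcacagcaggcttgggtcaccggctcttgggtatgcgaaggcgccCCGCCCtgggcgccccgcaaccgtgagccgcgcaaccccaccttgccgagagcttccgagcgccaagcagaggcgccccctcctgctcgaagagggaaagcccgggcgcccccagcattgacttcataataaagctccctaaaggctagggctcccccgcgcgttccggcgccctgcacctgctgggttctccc
*Camk2b* (chr11:6065749-6065998, minus strand): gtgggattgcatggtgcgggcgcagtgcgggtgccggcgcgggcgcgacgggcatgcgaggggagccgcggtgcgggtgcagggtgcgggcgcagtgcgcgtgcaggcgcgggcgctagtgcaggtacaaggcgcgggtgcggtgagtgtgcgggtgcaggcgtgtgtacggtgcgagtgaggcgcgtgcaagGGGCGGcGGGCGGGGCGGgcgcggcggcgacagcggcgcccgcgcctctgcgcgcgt
*Camk2d* (chr3:126596701-126596950, plus strand): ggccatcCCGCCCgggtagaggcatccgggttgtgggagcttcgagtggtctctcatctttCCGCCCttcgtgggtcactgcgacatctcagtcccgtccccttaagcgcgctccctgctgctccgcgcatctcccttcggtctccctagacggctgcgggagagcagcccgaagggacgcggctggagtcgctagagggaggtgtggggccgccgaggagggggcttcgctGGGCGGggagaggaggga
The GC box occurred once in *Camkk2*, 2 times in *Camk1d* and 3 times each in *Camk2d* and *Camk2b*, where the copies that begin 50 and 45 bases before the start share a base. In the windows not printed it occurred 2 times in *Camkk1*, once in the other *Camk1d* window and in neither *Camk1* nor *Camk1g*. Of the 32851 windows of this length in the table, 32.7% held it on either strand. The cyclic AMP response element TGACGTCA, the site through which CREB acts, was in none of the 8 windows that matched a kinase gene (7 genes, with 2 windows for *Camk1d*) and in 1.55% of all windows. Its shorter form TGACG was found once in *Camk1* and once in *Camkk1*, beside 17.8% of all windows. The *Camk2b* window held 44 CpG dinucleotides, the *Camkk2* window 32 and that of *Camk1g* 1, against a median of 6. These matches are a description of the letters in the window and were not tested against expression.

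*Camk2a* (chromosome 18, 60925307 to 60988152, GRCm38) codes for the alpha subunit, the main CaMKII subunit of forebrain neurons. It was the kinase gene with the most reads: its lowest, median and highest values were 2359.9, 2418 and 2646 CPM in B6 and 1732, 2344 and 2745 CPM in B6.D2 mice. The B6 mice lay close together and within the range of the B6.D2 mice, of which 5 were outside the B6 range, above or below it. The log2 fold change was -0.10 (SE 0.08, 95% interval -0.26 to 0.06, adjusted p = 0.655 in edgeR). It was -0.052 without B6.D2 mouse 1 and -0.038 (SE 0.06) without both libraries that stood apart. An exact two-sided permutation test of log2 CPM gave p = 0.175 (n = 8 and 8). The spread of *Camk2a* between mice was unequal: the coefficient of variation was 3.99% in B6 and 14.2% in B6.D2 mice, and 2.74% and 10.7% without the libraries that stood apart. Over 8172 genes with a mean of at least 20 CPM the median coefficient was 7.14% in B6 and 9.30% in B6.D2. The difference in spread was not tested.

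*Camk2b* (chromosome 11, 5969629 to 6066357) codes for the beta subunit, which binds actin filaments and anchors the ring at the synapse. Its values were 1208, 1297 and 1398 CPM in B6 and 1115, 1346 and 1437 CPM in B6.D2 mice, and 6 of 8 B6.D2 mice were above the B6 median. The log2 fold change was 0.03 (SE 0.05, 95% interval -0.08 to 0.15, adjusted p = 0.847). B6.D2 mouse 1 was the lowest of the 16. Without both libraries that stood apart the estimate was 0.08 (adjusted p = 0.396).

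*Camk2d* (chromosome 3, 126595487 to 126846326) codes for the delta subunit, best known from heart muscle. Its coefficient of variation was 21.3% in B6 mice, the highest of the 10 genes there, and 10.95% in B6.D2 mice, where *Camk2a*, *Camk1d*, *Camk4* and *Camk1* were higher. The values were 46.1, 66.3 and 82.2 CPM in B6 and 46.3, 59.9 and 66.2 CPM in B6.D2 mice. All 8 B6.D2 mice lay below the B6 median, yet also within the B6 range, because B6 mice 3, 7 and 8 were as low as the B6.D2 mice. The log2 fold change was -0.13 (SE 0.11, 95% interval -0.37 to 0.10, adjusted p = 0.693), and -0.21 (SE 0.11, adjusted p = 0.421) without the libraries that stood apart. *Camk2g* (chromosome 14, 20734873 to 20794157), the gene of the gamma subunit, differed least: values of 145, 155 and 175 CPM in B6 stood against 146, 151 and 187 CPM in B6.D2 mice. Its log2 fold change was -0.0031 (SE 0.05), with a 95% interval from -0.12 to 0.11. Without the libraries that stood apart it was -0.009 (SE 0.05).

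Levels were compared between genes only per length, as reads per kilobase of annotated exon, scaled to library size (RPKM). In the 16 mice *Camk2a* stood at 318 ± 33.2 RPKM (SD), *Camk2b* at 144 ± 9.51, *Camk2g* at 32.5 ± 2.39 and *Camk2d* at 3.85 ± 0.674. The CaMKII messenger RNA of the striatum was thus mostly of the alpha and beta genes. *Camk2a* made up 64.8% ± 1.08 of the summed RPKM of the 4 genes in B6 and 62.6% ± 2.13 in B6.D2 mice (SD, n = 8 each), and *Camk2b* 28.0% ± 1.05 and 29.99% ± 1.74. *Camk2g* took 6.41% and 6.68%, and *Camk2d* at most 1.06% in any mouse. The ratio of *Camk2a* to *Camk2b* per length was 2.11 at the lowest, 2.34 at the median and 2.43 at the highest in B6 mice, and 1.87, 2.11 and 2.35 in B6.D2 mice. The median of the B6.D2 mice was close to the lowest B6 mouse, but the groups overlapped; the ratio was chosen after the values were seen and was not tested. These proportions depend on the length used. With the longest annotated transcript in place of all exons the mean RPKM of *Camk2a* was 1.5 times that of *Camk2b* instead of 2.2 times, and *Camk2d* stood at 14.1 RPKM instead of 3.85.

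**Figure D2:**
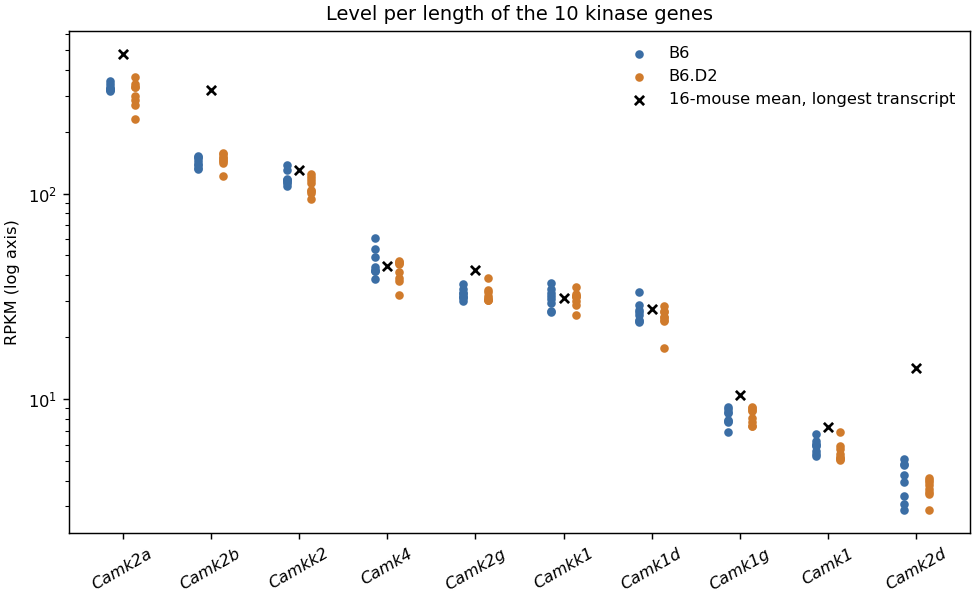
RPKM (log axis) of the kinase genes by all annotated exons, 1 point a mouse, in order of the mean; crosses are 16-mouse means with the longest annotated transcript. *Camk2a*, *Camk2b* and *Camkk2* lie above 90 RPKM in all mice and *Camk1g*, *Camk1* and *Camk2d* below 10, and the cross of *Camk2d* lies well above its points.

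The CaMK kinases stand at the head of the cascade. *Camkk2* (chromosome 5, 122718380 to 122779522), whose product also activates AMP-activated kinase, came closest to the threshold. Its values were 345, 369 and 439 CPM in B6 and 299, 345 and 397 CPM in B6.D2 mice. Of the B6.D2 mice 4 were below every B6 mouse and 3 above the B6 median. The log2 fold change was -0.12 (SE 0.06, 95% interval -0.26 to 0.01), with an unadjusted p of 0.0763 and an adjusted p of 0.538 in edgeR's test, and p = 0.0807 in the exact two-sided permutation test (n = 8 and 8). Without the libraries that stood apart the estimate was -0.08 (SE 0.06). *Camkk1* (chromosome 11, 73016043 to 73042073) codes for the related kinase. It ranged over 99.2, 116 and 137 CPM in B6 and 95.6, 117 and 131 CPM in B6.D2 mice, so that both groups covered nearly the same span, and its log2 fold change was -0.01 (SE 0.07, 95% interval -0.16 to 0.13), and 0.06 (SE 0.06) without those libraries. Per length *Camkk2* stood at 114 ± 11.2 RPKM and *Camkk1* at 30.9 ± 3.11 (SD, n = 16), with *Camkk2* the higher in all 16 mice.

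*Camk1*, *Camk1d* and *Camk1g* code for CaMKI isoforms, cytoplasmic kinases with roles in neurite growth. *Camk1d* (chromosome 2, 5293457 to 5714860) was at 177, 194 and 247 CPM in B6 and 131, 186 and 209.5 CPM in B6.D2 mice. The extremes were the libraries that stood apart, B6 mouse 8 the highest and B6.D2 mouse 1 the lowest. Its log2 fold change was -0.11 (SE 0.08, adjusted p = 0.666) with all mice and -0.0014 (SE 0.05) without those 2. *Camk1* (chromosome 6, 113334124 to 113343922) showed the reverse. It had values of 32.1, 35.9 and 40.8 CPM in B6 and 30.7, 32.2 and 42.1 CPM in B6.D2 mice, the highest being B6.D2 mouse 1, while the other 7 B6.D2 mice lay below the B6 median. The log2 fold change was -0.09 (SE 0.07, adjusted p = 0.672) with all mice, and -0.15 (SE 0.05, unadjusted p = 0.00917, adjusted p = 0.293 in edgeR) without both libraries. In that comparison *Camk1* was the 1 kinase gene lower at an unadjusted p under 0.05, beside 7.32% of all genes. *Camk1* shares 232 bp of annotated exon with *Ogg1*, and reads there were not counted for either gene. *Camk1g* (chromosome 1, 193346346 to 193370355) was at 21.6, 25.7 and 28.7 CPM in B6 and 23.1, 26.5 and 28.6 CPM in B6.D2 mice, with a log2 fold change of 0.02 (SE 0.07, 95% interval -0.12 to 0.16), and 0.01 (SE 0.07) without both libraries. Every B6.D2 mouse fell within the B6 range.

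*Camk4* (chromosome 18, 32934941 to 33195767), the gene of the nuclear kinase CaMKIV, had the estimate farthest from 0. Its values were 479.7, 538 and 754 CPM in B6 and 401, 539 and 585 CPM in B6.D2 mice. The medians were nearly equal. The groups differed at their ends, with B6 mice 3, 8 and 6 above every B6.D2 mouse and B6.D2 mice 1 and 6 below every B6 mouse. The log2 fold change was -0.15 (SE 0.10, 95% interval -0.35 to 0.05, adjusted p = 0.60 in edgeR), and -0.08 (SE 0.08, adjusted p = 0.726) without the libraries that stood apart. Its exons share 182 bp with *2310026I22Rik*, and reads there were counted for neither gene.

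In order of the mean level per length, the remaining genes of the cascade stood at 44.2 RPKM for *Camk4*, 25.7 for *Camk1d*, 8.25 for *Camk1g* and 5.72 for *Camk1*. Among neighbours in the order of all 10 genes by annotated exons, *Camk2g* and *Camkk1* could not be separated, *Camk2g* being the higher in 11 of 16 mice. Each other neighbour kept its place in all 16 mice. With the longest transcripts as lengths *Camk2d* moved from the lowest place to the eighth, above *Camk1g* and *Camk1*. *Camk2g* and *Camkk1* then lay farther apart, with 16-mouse means of 42.3 and 31.0 RPKM.

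The libraries were sequenced in 2 sets of 4 B6 and 4 B6.D2 mice, on lanes 5 and 6 and on lanes 7 and 8. In the mice of lanes 7 and 8, *Camkk2* (log2 fold change -0.18, SE 0.07, unadjusted p = 0.0224) and *Camk4* (-0.20, SE 0.09, unadjusted p = 0.0472) were lower at an unadjusted p under 0.05. This is 2 of 10 genes, beside 4.66% of all genes, and neither passed the adjustment in edgeR (adjusted p = 0.53 and 0.55). In the mice of lanes 5 and 6 the same genes had log2 fold changes of -0.07 (SE 0.11) and -0.10 (SE 0.17), and 0 of 10 were past that threshold, beside 1.56% of all genes. B6.D2 mouse 1 belongs to the first set and B6 mouse 8 to the second. A test of the difference between the sets, the interaction of genotype and lane pair, gave no kinase gene with an unadjusted p under 0.05, the lowest being 0.301 for *Camk2d*. The share over all genes was 1.88%. The lane pair is thus not shown to alter any of the 10 differences.

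**Figure D3:**
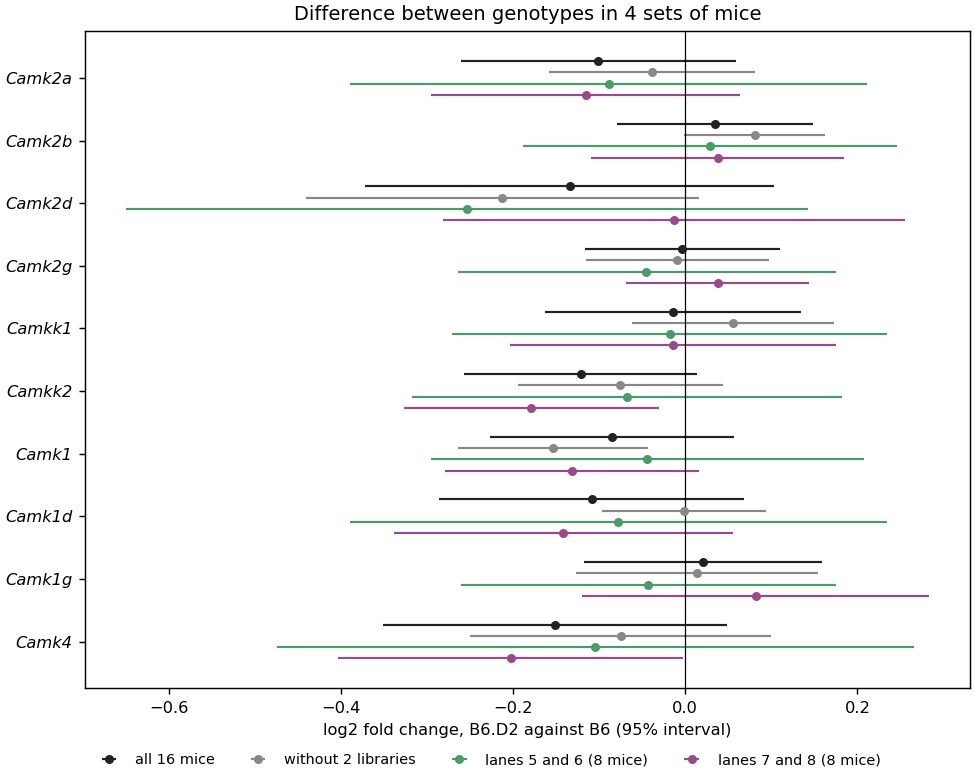
Log2 fold change of B6.D2 against B6 mice (horizontal axis; points) with 95% intervals (lines) from edgeR for each kinase gene, in all 16 mice, in 14 mice without the libraries that stood apart, and in the mice of each lane pair. The intervals of all 16 mice include 0 for all 10 genes, and those that exclude 0 are *Camk1* without 2 libraries and *Camkk2* and *Camk4* in lanes 7 and 8.

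Markers of another cell class also had lower estimates in B6.D2 mice. All 13 markers of cortical glutamatergic neurons, such as *Slc17a7* and *Tbr1*, had estimates below 0, with a median log2 fold change of -0.52. Of them 10 were lower at an unadjusted p under 0.05, beside 5.14% of all genes, and 0 passed an FDR of 5%. The list was written with earlier results of these data known, and the paper names *Slc17a7* among the downregulated genes. Its direction is therefore not independent of those results. Their summed level was 661 to 1011 CPM in B6 and 471 to 909 CPM in B6.D2 mice. None of the defining markers was at 0 in all mice. In bulk tissue fewer cells of a type and less RNA per cell cannot be told apart. With a score of these markers as a term in the fit, the log2 fold change of *Camk2a* was 0.01 (SE 0.09) instead of -0.10, that of *Camkk2* -0.03 (SE 0.08) instead of -0.12 and that of *Camk1* 0.03 (SE 0.08) instead of -0.09. The estimate of *Camk2d* was -0.17 (SE 0.16), farther from 0 than without the score. The score itself ran from -0.416 to 1.226 in B6 and from -1.374 to 0.915 in B6.D2 mice. It overlaps in part with genotype, so the fit cannot fully separate them. None of the 9 other marker lists held a gene at an FDR of 5%, and the 6 interneuron and 8 hypothalamic markers each held 1 gene higher at an unadjusted p under 0.05.

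Other genes of the pathway were examined as a list of 52 tested genes, of which 35 had estimates below 0. No gene of the list passed an FDR of 5%, 6 were lower and 1 higher at an unadjusted p under 0.05, and the median log2 fold change was -0.04. The share of the list at that threshold was 13.5%, or 7 of 52, beside 1559 of the 15589 genes. *Calm2* and *Calm3* code for calmodulin itself. *Calm2* was at 1368 to 1886 CPM in B6 and 1348 to 2205 CPM in B6.D2 mice (log2 fold change -0.01, SE 0.10), and *Calm3* at 1094 to 1411 CPM and 1063 to 1317 CPM (-0.07, SE 0.06). The ranges overlapped for both, and the related *Calml4* was low, at most 1.32 CPM in any mouse.

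*Camk2n1* and *Camk2n2* code for small proteins that bind active CaMKII and block it. *Camk2n1* was at 2069, 2374 and 3036 CPM in B6 and 2203, 2357 and 3666 CPM in B6.D2 mice, with a log2 fold change of 0.03 (SE 0.10, adjusted p = 0.937 in edgeR) and of -0.02 without the libraries that stood apart. *Camk2n2* was at 31.9, 42.9 and 53.3 CPM in B6 and 33.4, 38.5 and 63.8 CPM in B6.D2 mice, with -0.03 (SE 0.12, adjusted p = 0.949) and -0.15 without them. In both cases the highest mouse was B6.D2 mouse 1, the mouse with the lowest *Camk2a*. Per length, *Camk2n1* was 3.56 times as high as *Camk2a* in that mouse, 1.45 to 1.93 times in the B6 mice and at most 1.86 times in the other B6.D2 mice. *Pnck*, a further CaMKI gene on the X chromosome, was at 39.5, 44.7 and 57.8 CPM in B6 and 39.6, 45.4 and 56.1 CPM in B6.D2 mice (log2 fold change 0.02, SE 0.08). The genes of calcineurin, the calmodulin-dependent phosphatase that opposes these kinases, and of its regulators had 5 of 6 estimates below 0, with 0 at an unadjusted p under 0.05 and a lowest adjusted p of 0.532. The 3 genes of proteins that hold calmodulin in store, among them *Nrgn*, had 1 estimate below 0 and 2 above, and 0 passed either threshold.

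The 7 pathway genes at an unadjusted p under 0.05 came from 5 of the 10 groups of the list. *Mef2c*, a transcription factor whose repression CaMK signalling relieves, had a log2 fold change of -0.36 (SE 0.10, unadjusted p = 0.0019, adjusted p = 0.331 in edgeR), from 190 to 293 CPM in B6 to 154 to 241 CPM in B6.D2 mice. *Prkaa2*, a catalytic subunit of AMP-activated kinase and a target of CaMKK2, was at 35.3 to 43.4 CPM and 28.6 to 38.3 CPM (-0.21, SE 0.06, adjusted p = 0.331). *Ppm1e*, a phosphatase that removes the activating phosphate from CaM kinases, was at 103.6 to 160.1 CPM and 92.4 to 127 CPM (-0.26, SE 0.09, adjusted p = 0.397). All 8 B6.D2 mice were below the B6 median for *Prkaa2* and *Ppm1e* and 7 for *Mef2c*, but each group overlapped the other. *Cask*, a scaffold with a CaMK-like domain, had -0.18 (SE 0.05, adjusted p = 0.361). *Kalrn*, an exchange factor that CaMKII phosphorylates, had -0.23 (SE 0.09, adjusted p = 0.445), and *Grin2b*, the NMDA receptor subunit that docks CaMKII, -1.35 (SE 0.38, adjusted p = 0.340). *Grin2b* ranged from 7.62 to 58.9 CPM among the B6 mice alone. *Atf1*, a CREB relative, was the 1 gene higher (0.14, SE 0.06, adjusted p = 0.463). The cortical marker score was lower in most B6.D2 mice, so a fit that holds it cannot fully separate score and genotype. With the score in edgeR's fit, 0 of the 52 genes had an unadjusted p under 0.05, beside 2.75% of all genes. *Mef2c* then had a log2 fold change of -0.08, *Kalrn* -0.10, *Cask* -0.11, *Prkaa2* -0.15, *Ppm1e* -0.22, *Grin2b* -0.93 and *Atf1* 0.13. Without both libraries that stood apart, all 7 kept their sign and an unadjusted p under 0.05, with *Kalrn* at -0.14 and *Mef2c* at -0.33. The 7 genes had been picked by that threshold in a fit that held these same mice, so this is not an independent test. In the smaller fit 12.8% of all genes were under the threshold. Of the list, *Hdac4*, *Crem* and *Syn1* (lower) and *Actn2* and *Crtc1* (higher) were under it there as well.

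The kinase genes also varied from mouse to mouse within each genotype, and several did so together. After the genotype means had been removed, the Pearson correlation of log2 CPM over the 16 mice was calculated for the 45 pairs, as a description without a test, since all values of a mouse share its library and punch. It ran from -0.728 to 0.866 with a median of 0.124. *Camkk2* and *Camk4* formed the highest pair (r = 0.866, and 0.80 in the 14 mice without the libraries that stood apart). Other pairs of a CaMK kinase gene and a gene of its substrates went both ways. *Camk1d* was positive with *Camkk2* (0.741, and 0.645 in 14 mice). *Camk1* (-0.426 and -0.083) and *Camk1g* (-0.317 and -0.326) were negative with *Camkk2*. *Camkk1* and *Camk4* had 0.362 and -0.059. In the plot of *Camk4* against *Camkk2*, B6 mouse 3 was the highest for both and B6.D2 mouse 1 the lowest for both. *Camkk2* was also close to *Camk2a* (r = 0.782, and 0.692 in 14 mice) and *Camk1d* close to *Camk4* (0.766 and 0.640).

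*Camk2d* went the other way, with r = -0.728 to *Camkk2* and -0.660 to *Camk4*, and -0.698 and -0.608 in 14 mice. Other pairs rested on the 2 libraries. That of *Camk2b* and *Camk1d* dropped from 0.757 to 0.249 without them, that of *Camk2a* and *Camk2b* from 0.733 to 0.371, and that of *Camk2a* and *Camk1* turned from -0.305 to 0.472. In all, 14 pairs were above 0.5 in 16 mice and 8 in 14 mice. The share among pairs of all genes was not computed, so these counts are not a trait of the kinase genes. B6.D2 mouse 1 was the lowest of the 16 for 6 of the 10 genes, and it was also the lowest for 27.7% of all genes tested and the highest for 31.3%.

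**Figure D4:**
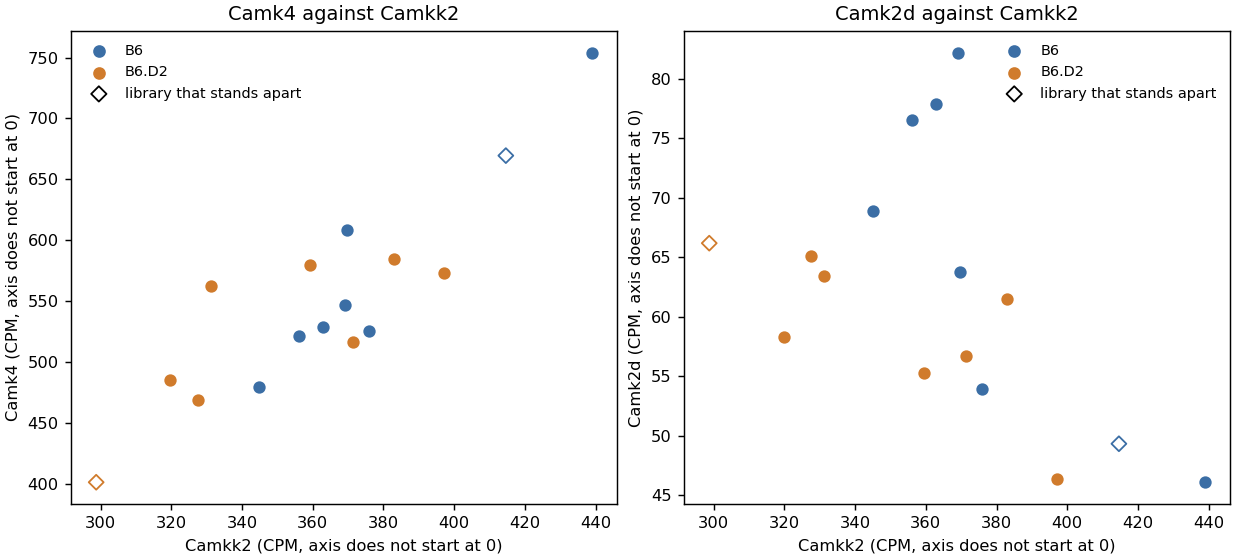
*Camk4* (left) and *Camk2d* (right) against *Camkk2*, in CPM, 1 point a mouse and with axes that do not start at 0; open diamonds are the libraries that stood apart. *Camk4* is higher in mice with more *Camkk2* (r = 0.866 with genotype means removed) and *Camk2d* lower (r = -0.728).

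**Figure D5:**
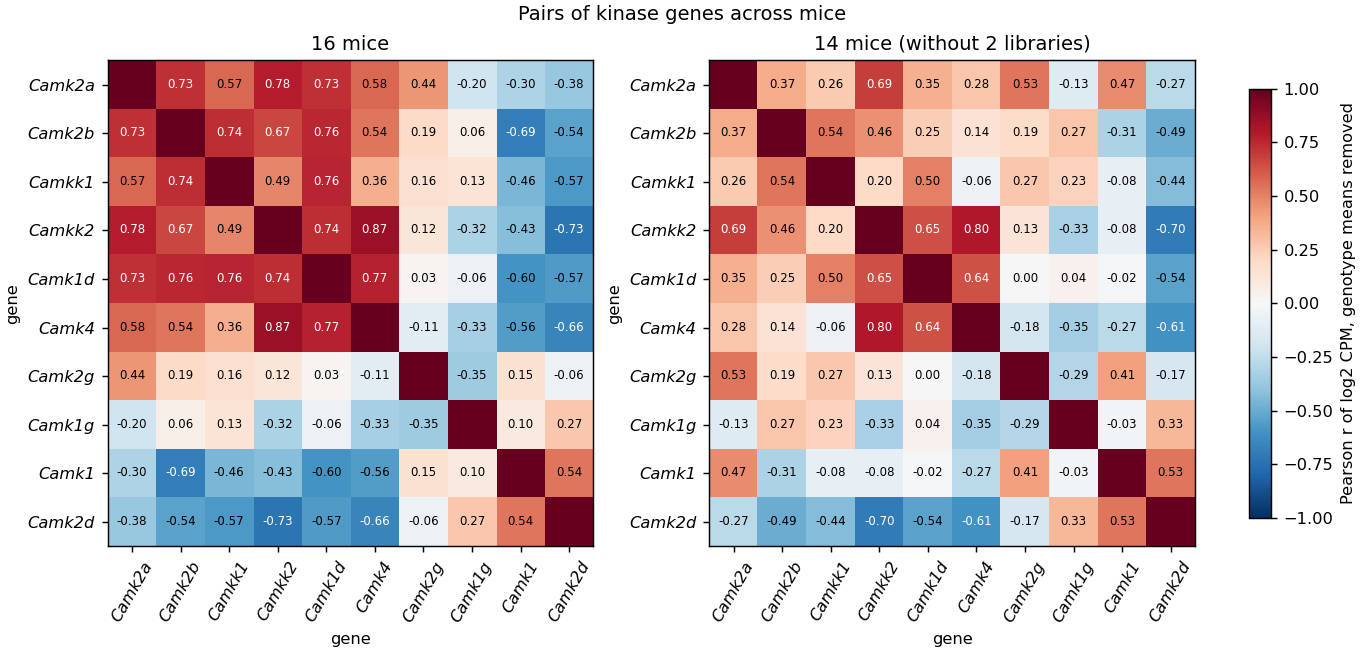
Pearson r of log2 CPM for each pair of kinase genes with genotype means removed, in 16 mice (left) and in the 14 without the libraries that stood apart (right); red is positive and blue negative, and the diagonal is 1. The block of positive values from *Camk2a* to *Camk4* thins out in the right panel. Its highest values there are those of *Camkk2* with *Camk4*, *Camk2a* and *Camk1d* and of *Camk1d* with *Camk4*, while *Camkk2* with *Camkk1* falls to 0.20. The negative values of *Camk2d* with the block remain.

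The summed level of cell type markers moved with some of these genes. Over the 16 mice *Camk2d* had r = -0.884 with the summed level of the striatal projection neuron markers, and -0.899 in 14 mice. *Camkk2* had 0.630 and 0.654, and *Camk4* 0.587 and 0.584. *Camk2a* had r = 0.556 in 16 mice and 0.850 in 14 with the cortical glutamatergic markers, beside 0.255 and 0.165 with the striatal markers. *Camk2b* showed the opposite, at 0.033 and 0.051 with the cortical and 0.542 and 0.647 with the striatal markers. Other lists went with these genes as strongly. *Camk2a* had r = -0.808 and -0.601 with the interneuron markers, -0.721 and -0.527 with the midbrain dopamine markers and 0.671 and 0.237 with the astrocyte markers. *Camkk2* had -0.738 and -0.806 with the interneuron and -0.696 and -0.768 with the microglial markers. *Camk1* was positive with the cortical list (0.460 and 0.643) and negative with the striatal list (-0.525 and -0.702). In B6.D2 mouse 1 the 6 markers of interneurons summed to 605 CPM, against 338 to 417 CPM in the B6 mice. The part of these cell classes in the covariation was not tested.

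Among 14206 other genes with a mean of at least 1 CPM, those nearest to each kinase gene by the same correlation were as follows. For *Camk2a* they were *Pip5k1c* (r = 0.949), *Sept5* (0.945) and *Fam189a1* (0.934), and for *Camk2b* *Camkv* (0.938), *Nrde2* (0.930) and *Pip5k1a* (0.921). *Camkv* codes for a pseudokinase of the same family and was on the pathway list. *Camkk2* was nearest to *Rasgrp1* (0.931), *Wdr17* (0.929) and *Atp2b1* (0.914), and *Camk4* to *Atp2b1* (0.936), *Lrrk2* (0.926) and *Cul4a* (0.924). *Atp2b1*, the gene of a calcium pump of the plasma membrane, was the 1 gene named for both. For *Camk2d* the nearest were *Slc25a18* (0.914), *Dner* (0.879) and *Adcy8* (0.875), and for *Camk1* *Sncb* (0.936), *Ankrd9* (0.916) and *Syp* (0.916), of which *Sncb* and *Syp* code for proteins of the presynaptic terminal. *Camk1d* was nearest to *Sgtb* (0.936), *Itpr1* (0.935) and *Rnf150* (0.935), the second of which codes for a calcium channel of the endoplasmic reticulum. The nearest genes of *Camk2g* were *Gpc4* (0.834), *Pskh1* (0.799) and *Dnm1* (0.791), those of *Camkk1* were *Mapk4* (0.839), *Sec14l1* (0.836) and *Rhobtb2* (0.826), and those of *Camk1g* were *Tnfaip8l2* (0.778), *Upp1* (0.744) and *E2f6* (0.738). In the 14 mice without the libraries that stood apart, the correlations of these 30 pairs ran from 0.656 to 0.943, and those of *Camk1d* with *Itpr1* and *Rnf150* were 0.704.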

How the data were processed

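The labels give the genotype, age and lanes of each mouse. Per the authors' scripts, TopHat with bowtie2 2.2.2 placed the 50 bp reads on UCSC mm10, and htseq-count 0.6.1p1 assigned them to genes (union mode). The counting ignored strand although the kit keeps it, so antisense reads cannot be told apart, and reads on exons of more than 1 gene were left out. The deposited counts are not normalized. The authors' own comparison, which modelled home cage and gives fold changes and p-values, was not used, and home cage is not in the labels. The sources differ on punch diameter and age.

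Counts of the 31 lane files analysed were summed per mouse, since both files of a mouse differed by sampling noise or slightly more (chi-square per degree of freedom 0.997 to 1.051), and B6 mouse 7 has 1. After filterByExpr and TMM scaling, the genotypes were compared by edgeR 4.0.16 (R 4.3.3; quasi-likelihood), with log2 CPM at a prior count of 0.5. The exact two-sided permutation test used all 12870 assignments of the 16 mice. Pathway genes and cell type markers came from lists written from general knowledge. Named genes were the 10 kinase genes, calmodulin and CaMKII inhibitor genes, *Pnck*, pathway genes with an unadjusted p under 0.05 and the 3 nearest genes of each kinase gene. A gene that the rule names is not reported here but stays in the counts. The genes and lists were chosen with earlier results of these data known. RPKM used GENCODE exon lengths on NCBIM37, and promoter windows and positions came from RefSeq on GRCm38.p6, the same assembly as mm10. Windows matched 7 of the 10 genes. The fit was tested on simulated counts whose planted changes were larger than those estimated for the kinase genes. It does not show whether changes as small as theirs would be found. The mice are separate animals, so p-values measure the spread between them. Replicate numbers do not pair the mice in the labels.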

Additional observations from a re-analysis of the deposited data

Results flagged for a closer look

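Among the 20 groups of 8 values (10 kinase genes in 2 genotypes), 4 held a mouse farther from the nearest of the others, as a share of the range of the group, than Dixon's 95% limit for 8 values. Chance flags about 1 in 20 groups, but the 10 genes come from the same mice, so the groups are not independent. B6.D2 mouse 1 accounted for 3 of them. Its *Camk2b* was 1114.5 CPM, below 1291 to 1437 CPM in the other B6.D2 mice. Its *Camk1d* was 131 CPM, below 179 to 209.5 CPM, and its *Camk1* was 42.1 CPM, above 30.7 to 35.8 CPM. This library is 1 of the 2 that stand apart in where the reads fell. The fourth was *Camk2g* in B6.D2 mouse 2, at 187 CPM against 146 to 164 CPM in the other 7, a library that does not stand apart.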

How the results depend on the processing

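Each log2 fold change was recomputed under 30 alternatives, of which leaving out both libraries that stood apart was chosen after seeing the data. No kinase gene passed an FDR of 5% under any of them. The count of kinase genes lower at an unadjusted p under 0.05 was 0 with all mice, 2 with lane files as separate samples (beside 11.7% of all genes; this fit counts each mouse as 2 samples, with 1068 genes at an FDR of 5%), 2 in the mice of lanes 7 and 8 and 1 without both libraries, and 0 to 1 when each mouse was left out. The 1 was *Camk1* without B6.D2 mouse 1 (unadjusted p = 0.0153 in edgeR, beside 7.54% of all genes lower at that threshold) and *Camkk2* without B6.D2 mouse 2 (0.0307, beside 5.61%) or 4 (0.0447, beside 5.41%). Pathway genes at an FDR of 5% numbered 0 except 6 with lane files as samples. Signs held in all 30 for *Camk2b*, *Camk2d*, *Camkk2*, *Camk1d* and *Camk4*. With the cortical score, the log2 fold changes with the other sign were 0.015 for *Camk2a*, 0.029 for *Camk1*, -0.034 for *Camk1g* and 0.085 for *Camk2g*. In the mice of lanes 5 and 6 *Camk1g* was at -0.043, in those of lanes 7 and 8 *Camk2g* at 0.038, with the second lane file alone *Camk1g* at -0.042 and *Camk2g* at 0.0033, with upper-quartile normalization *Camk2g* at 0.0084, and without both libraries *Camkk1* at 0.055. Leaving out each mouse gave -0.012 to 0.047 for *Camk1g*, -0.044 to 0.023 for *Camk2g* and -0.043 to 0.021 for *Camkk1*. The cause was not tested. Over all genes 1 passed an FDR of 5% in the quasi-likelihood test, 25 in DESeq2 1.42.0, 20 in the likelihood ratio test and 7 without both libraries.

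Same-numbered mice did not deviate together (r -0.115 to 0.364, median 0.05, own number best for 2 of 8 pairs), and with the replicate number as a block 0 kinase genes and 0 pathway genes passed an FDR of 5%. With 8 mice a group, the intervals of the kinase genes reach from 0.773 to 1.12 times the B6 level, and changes within these intervals cannot be told from none.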
